A study of Mus musculus with 2 samples.

Results

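The genes described here encode interleukins, C-C and C-X-C chemokines, the tumour necrosis factor (TNF) superfamily, the receptors of all of these, and the Toll-like receptors. They were chosen by symbol among annotated genes with at least 1 transcript typed protein-coding, which gave 178 genes of 55536 annotated ones. The symbol rule itself uses no measured value. Related genes with other symbols, such as Cx3cl1, Csf1r and the atypical chemokine receptors, lie outside it and are given as context.

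The tissue was left cerebral cortex, taken at an age of 2 months from female mice of strain B6CASTF1/J, first-generation hybrids of C57BL/6J and CAST/EiJ, and its total RNA was sequenced. The series held 1 group with 2 biological replicates, each 1 library from 300 ng of RNA with synthetic spike-in RNAs, and the labels name no treatment, mutation or transgene. The tissue samples carry separate numbers in the labels but the same donor entry, so whether they come from separate animals is not stated and the spread between them may be only technical. Since there is no other group, the data give levels, transcripts and the difference between the 2 libraries.

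As background, cytokines and chemokines are secreted or membrane-bound signals that cells release to steer immune cells, and each acts on cells that carry its receptor. Interleukin 1 and Toll-like receptors pass their signal through Myd88 and the Irak kinases to NF-kB, TNF receptors through Traf adaptors, and the interleukin 6 family through gp130 and the JAK kinases. In healthy brain most inflammatory cytokines are known to be scarce, while some family members act between neurons, glia and vessels.

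Levels are given in TPM, transcripts per 1000000 transcripts, a measure of abundance per transcript length, as listed in the alignment-based gene tables. Each SD printed beside a level is of these deposited TPM and includes any shift of a whole library. Levels called rescaled are brought to the same sum over nuclear protein-coding genes. A gene at 1 TPM or more in both libraries is called detected. Replicate 1 carried 31196858 expected counts and replicate 2 carried 32292150. For an effective length of 1 kb, 3 counts, the floor used here, equal 0.147 and 0.137 TPM. Neuron, astrocyte, oligodendrocyte, microglia and endothelium markers were all detected (3, 4, 3, 6 and 4 genes), with microglia markers summing to 137 and 132 TPM. Border macrophage markers were detected for 2 of 3 genes (4.91 and 4.91 TPM in sum). Meningeal fibroblast markers were detected for 4 of 5 (39.2 and 35.3 TPM in sum). None of 6 T cell, 4 B cell and 4 neutrophil markers was detected: their sums were 1.70 and 1.71, 0.45 and 0.20, and 0.36 and 0.45 TPM. Of the neutrophil markers, Ly6g and Mpo were at 0 in both libraries, S100a8 had 1 and 2 counts and S100a9 had 2 and 2. The sum of the choroid plexus markers was 7.87 TPM for replicate 1 and 36.6 TPM for replicate 2, and 1 of the 3, Ttr, differed beyond 2-fold. In bulk tissue, fewer cells of a type and less RNA per cell cannot be told apart.

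Few members were detected. Of the 178 members, 43 (24.2%) reached 1 TPM in both libraries, while 58.8% of 22015 nuclear protein-coding genes did. The members' median level was 0.125 TPM in replicate 1 and 0.1 TPM in replicate 2, beside 3.82 and 3.59 TPM over nuclear protein-coding genes. At the low end, 83 members had 3 counts or fewer in both libraries, and 45 of them had 0 in both; among nuclear protein-coding genes 28% had 3 counts or fewer. The remaining 52 members lay between these groups.

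Together the members held 571 and 527 TPM, which was 0.0571% and 0.0527% of all TPM. The 10 highest members, Ccl27a, Cxcl14, Il34, Il6st, Tnfrsf21, Tnfrsf19, Il11ra1, Cxcl12, Il1rapl1 and Il33, held 70.6% and 71.6% of that sum. They include chemokines, interleukins and receptors, and none of them is a classical inflammatory cytokine such as Tnf, Il6 or Il1b.

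Receptor genes were detected more often than ligand genes, as a count. Of 89 receptor genes 27 (30.3%) were detected and 27 had 3 counts or fewer, whereas of 88 ligand and binding protein genes 16 (18.2%) were detected and 56 had 3 counts or fewer. The limit of 3 counts is a higher level for short transcripts, for example 0.354 and 0.330 TPM for Ccl17. For the longer Il6ra it is 0.0287 TPM in both libraries, and the classes were not matched for length. The median level was 0.35 and 0.30 TPM for receptor genes and 0.045 and 0.030 TPM for ligand genes. Summed levels ran the other way, at 240.5 and 222 TPM for receptors and 328 and 304 TPM for ligands. Ccl27a alone held 123 and 113 TPM of the ligand sum, more than the gap between these sums. The enzyme gene Il4i1, an L-amino acid oxidase matched by its symbol, makes up the 178 and is treated apart; it was at 2.23 and 0.87 TPM.

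**Figure D1:**
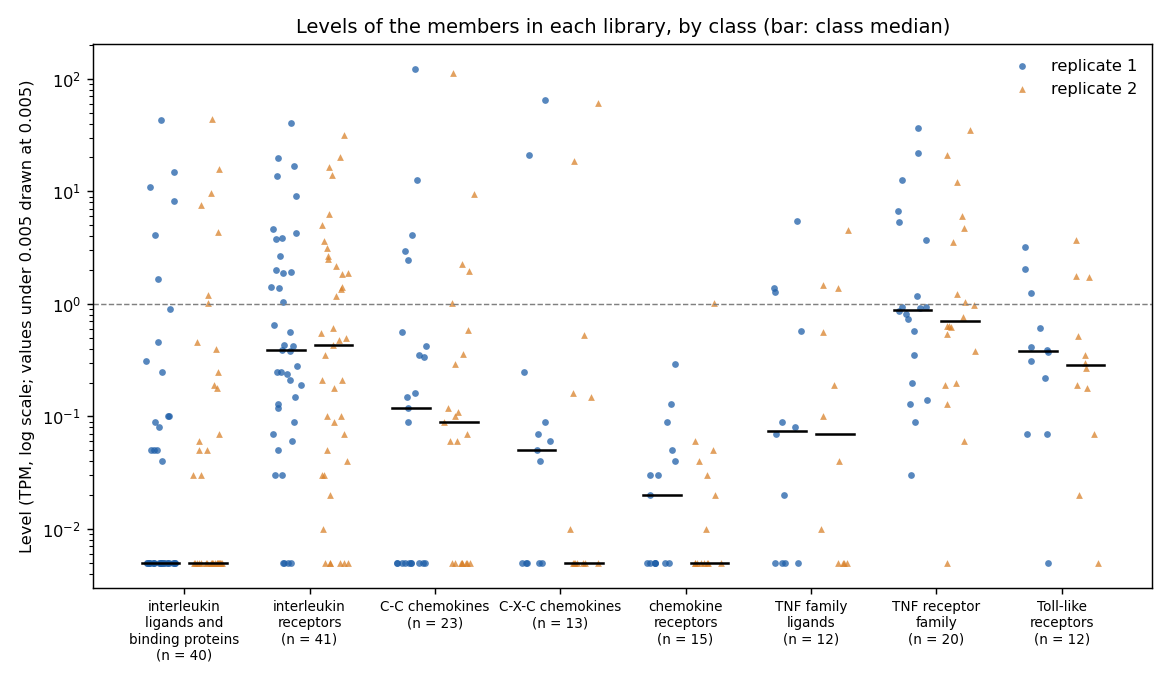
Levels of members in each library, by class, on a log scale in TPM; each point is 1 gene, circles are replicate 1, triangles are replicate 2, the bar is the class median and the dashed line marks 1 TPM. Values under 0.005 are drawn at 0.005. Ligand classes hold both the highest points (Ccl27a, 123 and 113 TPM) and medians between 0 and 0.12 TPM.

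The promoters of the detected and of the near-silent members differed in base composition. RefSeq promoters (GRCm38.p6, 250 bases before to 50 bases after the annotated start) were at hand for 137 members. The promoter of a detected member held a median of 12 CG dinucleotides (35 of 43 genes matched), against 4 in members with 3 counts or fewer (62 of 83) and 4.5 in those between (40 of 52). A TATAAA on the gene's strand beginning 40 to 20 bases before the start was found in 0 of the 35 detected members, in 4 of 40 between (10%) and in 10 of 62 with 3 counts or fewer (16.1%). The 10 were Tnf, Il2, Il13, Il17a, Il17f, Ccl8, Ccl12, Cxcl3, Cxcl15 and Tnfsf18, and the 4 were Il1a, Il1b, Cxcr4 and Il13ra2.

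The same measures separate protein-coding genes at large. Detected protein-coding genes had a median of 21 CG dinucleotides and a TATAAA there in 1.03% of 10074 promoters. Protein-coding genes with 3 counts or fewer had a median of 2 and a TATAAA in 6.59% of 4368 promoters, and 2.78% of all 16522 held one. At least 15 CG dinucleotides were held by 42.9% of the detected members and 72.0% of detected protein-coding genes. A match is a run of letters and no test of a factor's binding.

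As examples of both ends of this range, the 100 bases before the start of 3 of the highest members and of 3 inflammatory cytokines at or near 0 counts are printed 5′ to 3′ on the gene's strand, with each CG and each TATAAA in capitals. These 6 were chosen after their values were seen and are not typical of all: over the full 300 bases the 3 high members hold 22, 20 and 33 CG dinucleotides, but Ccl27a, the highest member, holds 11, Il11ra1 and Il1rapl1 hold 7 each and Il33 holds 6, while Tnf holds 11.
Cxcl14 (chr13:56296552-56296651, minus strand): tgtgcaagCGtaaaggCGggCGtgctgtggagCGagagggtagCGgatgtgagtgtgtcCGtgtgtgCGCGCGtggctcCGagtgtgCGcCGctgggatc
Cxcl12 (chr6:117168435-117168534, plus strand): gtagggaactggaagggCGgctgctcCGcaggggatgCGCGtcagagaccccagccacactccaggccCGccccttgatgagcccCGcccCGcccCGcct
Il6st (chr13:112463970-112464069, plus strand): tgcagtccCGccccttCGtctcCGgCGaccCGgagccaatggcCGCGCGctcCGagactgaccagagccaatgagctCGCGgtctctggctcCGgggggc
Tnf (chr17:35202008-35202107, minus strand): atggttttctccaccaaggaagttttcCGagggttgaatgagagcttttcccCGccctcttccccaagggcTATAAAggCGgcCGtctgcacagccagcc
Il1b (chr2:129371140-129371239, minus strand): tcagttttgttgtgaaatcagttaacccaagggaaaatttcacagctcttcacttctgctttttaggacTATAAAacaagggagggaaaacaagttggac
Il6 (chr5:30013014-30013113, plus strand): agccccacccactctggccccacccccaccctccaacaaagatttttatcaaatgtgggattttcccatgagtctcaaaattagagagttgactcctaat
The first 3 stretches held 12, 8 and 12 CG dinucleotides and no TATAAA in the window searched, and those of Tnf, Il1b and Il6 held 4, 0 and 0. The TATAAA began 29 bases before the start of Tnf and 31 bases before that of Il1b, and Il6 had none in the window.

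Among interleukin ligands and binding proteins, 6 of 40 genes were detected. Il34 (chr8:110741829-110805924, mm10), a cytokine made by neurons that acts on the microglial receptor Csf1r, was at 43.39 and 43.90 TPM (43.6 ± 0.36, SD, n = 2). Its counts were 1006 and 1109 and its rescaled levels 92.9 and 99.5, a wider gap than in the deposited TPM. Il33, a nuclear alarmin of astrocytes and oligodendrocytes, was at 15.01 and 15.88 TPM. Il18, which is activated by inflammasome caspases, was at 10.85 and 9.65 TPM. These levels stand clear of each other in both libraries, in the order Il34, Il33, Il18.

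The other 3 detected genes of the class were lower. Il17d, a member of the interleukin 17 family, was at 8.20 and 7.58 TPM. Il18bp, a secreted protein that binds and neutralises interleukin 18, was at 4.12 and 4.36 TPM. Il12a, the p35 chain of interleukin 12, was at 1.66 and 1.21 TPM on 27 and 28 counts, close to the limit of detection as defined here. Il18 thus exceeded its binding protein in both libraries.

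Another 7 genes of this class lay between. Il16 was at 0.91 and 1.01 TPM, and Il15, Il17b, Il11, Il1a, Il1b and Il7 were at 0.04 to 0.46 TPM. Of the inflammatory pair, Il1a had 4 and 8 counts and Il1b had 1 and 5. Il25, Il27, Il23a, Il17c, Il17f, Il19, Il22, Il12b and Il21 had 1 or 2 counts in one library or in both. Il2, Il3, Il4, Il5, Il6, Il9, Il10, Il13, Il17a, Il20, Il24, Il31, Il1rn, Il1f5, Il1f6, Il1f8, Il1f9 and Il1f10 had 0 counts in both. At 0 counts the depth allows up to 0.125 and 0.117 TPM for Il6, 0.121 and 0.113 TPM for Il10, and 0.314 and 0.293 TPM for the shorter Il4.

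Among interleukin receptors, 16 of 41 genes were detected. Il6st (chr13:112464070-112510086, mm10), which encodes gp130, the signalling chain shared by the interleukin 6 family, was highest at 40.71 and 31.37 TPM (36.04 ± 6.6, SD, n = 2). Il11ra1, the ligand-binding chain for interleukin 11, was at 19.90 and 20.39 TPM, and it shares 98.999% identity over 1299 bases with Il11ra2 and overlaps Galt on its strand. Il6ra, the ligand-binding chain for interleukin 6, was at 1.99 and 1.88 TPM. Il6st was far above Il6ra in both libraries, while the ligand gene Il6 had 0 counts.

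The gap between the libraries in Il6st did not appear in its counts, which were 2807 and 2933. It lay in 1 short transcript: Il6st-205, 322 bases long, was assigned 18.72 and 9.53 TPM from 85.3 and 46.5 counts in the alignment-based tables and 0 in both libraries by the read-based quantification. Without that transcript the gene's level was 21.99 and 21.84 TPM. This subtraction was chosen after the values were seen.

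The interleukin 1 receptor family held 4 detected genes. Il1rapl1 (chrX:86740870-88115645, mm10), a synapse-organising protein linked to X-linked intellectual disability in humans, was at 16.78 and 16.39 TPM. Il1rap, the accessory chain shared by the interleukin 1 and interleukin 33 receptors, was at 13.76 and 14.10 TPM. Il1rapl2, the X-linked relative of Il1rapl1, was at 3.83 and 2.66 TPM.

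Il1r1, the signalling interleukin 1 receptor, was at 1.38 and 1.37 TPM, below Il1rap by a wide margin in both libraries. Il1rl1, the interleukin 33 receptor, had 3 and 1 counts, and the decoy receptor Il1r2 had 1 and 2. The chromosome 1 cluster that carries Il1r2, Il1r1, Il1rl2, Il1rl1, Il18r1 and Il18rap (chr1:40074079-40551705) held 156 and 173 counts, of which Il1r1 took 128 and 139. By the read-based quantification Il1r1 had 160 and 173 estimated counts and Il18rap 72.4 and 67.1. There Il1rl2 had 37.1 and 31.2, Il18r1 28.6 and 23.3, and Il1rl1 16.3 and 13.4.

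Of the interleukin 17 receptor chains, Il17ra was at 9.08 and 6.34 TPM, Il17rc at 1.94 and 2.18 TPM, and Il17rd at 1.05 and 1.17 TPM. Il15ra was at 4.60 and 5.06 TPM, Il10rb at 4.24 and 3.62 TPM, and Il10ra at 1.4 TPM in both libraries. Il4ra and Il13ra1, which bind the products of Il4 and Il13, were at 3.75 and 3.14 TPM and at 1.90 and 1.85 TPM. Il3ra was at 2.68 and 2.49 TPM.

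For 15 receptor chains the level lay between, with the highest mean in Il21r at 0.65 and 0.50 TPM: Il21r, Il13ra2, Il2rg, Il1rl2, Il17rb, Il12rb1, Il17re, Il7r, Il20ra, Il20rb, Il27ra, Il31ra, Il11ra2, Il22ra1 and Il12rb2. Il1rl1, Il1r2, Il18rap, Il23r, Il2ra and Il2rb had 1 to 3 counts in at least 1 library and no more than 3 in the other. Il5ra, Il9r, Il18r1 and Il22ra2 had 0. Il2rg, the chain shared by several interleukin receptors, had 12 and 18 counts.

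Among C-C chemokines, 5 of 23 genes were detected. Ccl27a (chr4:41769467-41774247, mm10), a chemokine known from skin, was the highest of all members at 123.02 and 113.44 TPM (118 ± 6.8, SD, n = 2). Ccl25, known from thymus and gut, was at 12.49 and 9.38 TPM. Ccl27b, a near-identical copy of Ccl27a, was at 4.08 and 1.02 TPM. Ccl27a stood far above the next C-C chemokine in both libraries, and Ccl25 overlaps Elavl1 on the opposite strand.

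Ccl27a has near-identical copies that may share some of its reads. Its transcript matched Ccl27b at 99.3% identity over 425 bases. It also matched the predicted genes Gm13306 over 464 bases (18.73 and 19.51 TPM) and Gm20878 over 264 bases (29.65 and 22.77 TPM). The deposited posterior SD of its count was 17.72 and 15.98 on 1496 and 1441 counts, and for Ccl27b it was 9.17 and 6.11 on 27.2 and 7.3 counts. The split of reads between the copies was not tested beyond these values. Ccl27a also overlaps Il11ra1 on the opposite strand, but only at the gene ends (chr4:41769467-41769474). Whether strand was used in counting is not given in the sources used here.

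The other detected C-C chemokines were Ccl17, a ligand of Ccr4, at 2.95 and 1.98 TPM on 25 and 18 counts, and Ccl9 at 2.48 and 2.24 TPM. Ccl6, Ccl7, Ccl19 and Ccl28 lay between, at 0.07 to 0.59 TPM. Ccl2, Ccl11, Ccl12, Ccl21a, Ccl22 and Ccl24 had 3 counts or fewer, and Ccl1, Ccl3, Ccl4, Ccl5, Ccl8, Ccl20, Ccl21b and Ccl26 had 0. Ccl21a is a case for caution, since its near-identical copy Gm13304 (99.4% identity over 837 bases) was at 9.73 and 13.93 TPM. For Ccl2, Ccl3 and Ccl5, which draw monocytes and T cells into inflamed tissue, the counts were 0 and 1, 0 and 0, and 0 and 0.

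Among C-X-C chemokines, 2 of 13 genes were detected, both of them chemokines that tissues make without inflammation. Cxcl14 (chr13:56288643-56296551, mm10) was the second highest member at 64.90 and 61.32 TPM (63.1 ± 2.5, SD, n = 2). Its rescaled levels were 138.989 and 138.984, without that gap. Cxcl12 (chr6:117168535-117181367, mm10), which guides migrating neurons and blood cells through Cxcr4, was at 20.93 and 18.57 TPM (19.8 ± 1.7, SD, n = 2). The third highest, Cxcl16, was at 0.25 and 0.53 TPM, and Cxcl5 at 0.07 and 0.15 TPM. Cxcl1, a neutrophil chemokine, the interferon-induced Cxcl10 and Cxcl11, and Cxcl13, which draws B cells, had 3 counts or fewer, and Cxcl2, Cxcl3, Cxcl9, Cxcl15 and Cxcl17 had 0.

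Chemokine receptors, 16 genes, were low as a class, and 13 of them had 3 counts or fewer. Cxcr4, the receptor of Cxcl12, was at 0.29 and 1.01 TPM on 10 and 20 counts, and Ccr9, that of Ccl25, was at 0.13 and 0.05 TPM on 10 and 3. Ccr2, the receptor that draws monocytes to Ccl2, and Cxcr3, a receptor of activated T cells, had 3 expected counts or fewer. Ccr7, which guides lymphocytes to lymph nodes, had 0 in both libraries.

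Among TNF family ligands, 3 of 12 genes were detected. Tnfsf12 (chr11:69686250-69695849, mm10), which encodes TWEAK, was at 5.43 and 4.53 TPM (4.98 ± 0.64, SD, n = 2). Tnfsf13 and Tnfsf13b, which encode the B cell survival factors APRIL and BAFF, were at 1.39 and 1.39 TPM and at 1.28 and 1.47 TPM. The last pair lay within the spread of the libraries. Tnfsf12 and Tnfsf13 both overlap the read-through gene Tnfsfm13 on the same strand, and the posterior SD of their counts was 4.35 and 4.77 for Tnfsf12 and 4.65 and 4.56 for Tnfsf13.

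Tnf itself had 0 counts in both libraries, which allows up to 0.101 and 0.0944 TPM. Tnfsf4 and Tnfsf14 also had 0. Tnfsf8, Tnfsf11 and Tnfsf18 had 3 counts or fewer, and Tnfsf10, Tnfsf15 and Tnfsf9 lay between. Tnfsf10, which encodes the death ligand TRAIL, was the highest of these at 0.58 and 0.56 TPM.

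Every one of the 20 TNF receptor family genes had a count in at least 1 library, and 7 were detected. Tnfrsf21 (chr17:43016555-43089189, mm10), death receptor DR6 of neurons and oligodendrocyte precursors, was at 36.49 and 35.15 TPM (35.8 ± 0.95, SD, n = 2). Tnfrsf19, which encodes TROY, a co-receptor for inhibitors of axon growth, was at 21.95 and 21.16 TPM. Tnfrsf25, death receptor DR3, was at 12.53 and 12.22 TPM. The 3 do not overlap in either library.

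Both receptors of TNF were detected while their ligand was not. Tnfrsf1a was at 5.38 and 4.73 TPM and Tnfrsf1b at 1.17 and 1.23 TPM. Tnfrsf12a, the TWEAK receptor Fn14, was at 6.74 and 6.10 TPM, and Tnfrsf11a, which encodes RANK, was at 3.70 and 3.53 TPM. The 10 genes between were Tnfrsf23, Tnfrsf4, Tnfrsf11b, Tnfrsf22, Tnfrsf14, Tnfrsf13b, Tnfrsf8, Tnfrsf10b, Tnfrsf9 and Tnfrsf13c. Tnfrsf23 was just under the limit at 0.94 and 0.98 TPM, and Tnfrsf4 passed it in replicate 2 alone, at 0.74 and 1.04 TPM. Tnfrsf17, Tnfrsf18 and Tnfrsf26 had 3 counts or fewer.

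Of 12 Toll-like receptors 3 were detected. Tlr3 (chr8:45395665-45411080, mm10), a sensor of double-stranded RNA, was highest at 3.21 and 3.71 TPM (3.46 ± 0.35, SD, n = 2). Tlr7, a sensor of single-stranded RNA, was at 2.05 and 1.72 TPM. Tlr4, the receptor of bacterial lipopolysaccharide, was at 1.24 and 1.76 TPM, so that Tlr7 and Tlr4 overlap. Tlr13, Tlr9, Tlr12, Tlr6, Tlr5, Tlr2, Tlr8 and Tlr1 lay between, the highest being Tlr13 at 0.61 and 0.52 TPM. Tlr2, which recognises bacterial lipopeptides, had 13 and 12 counts, and Tlr11 had 0.

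**Figure D2:**
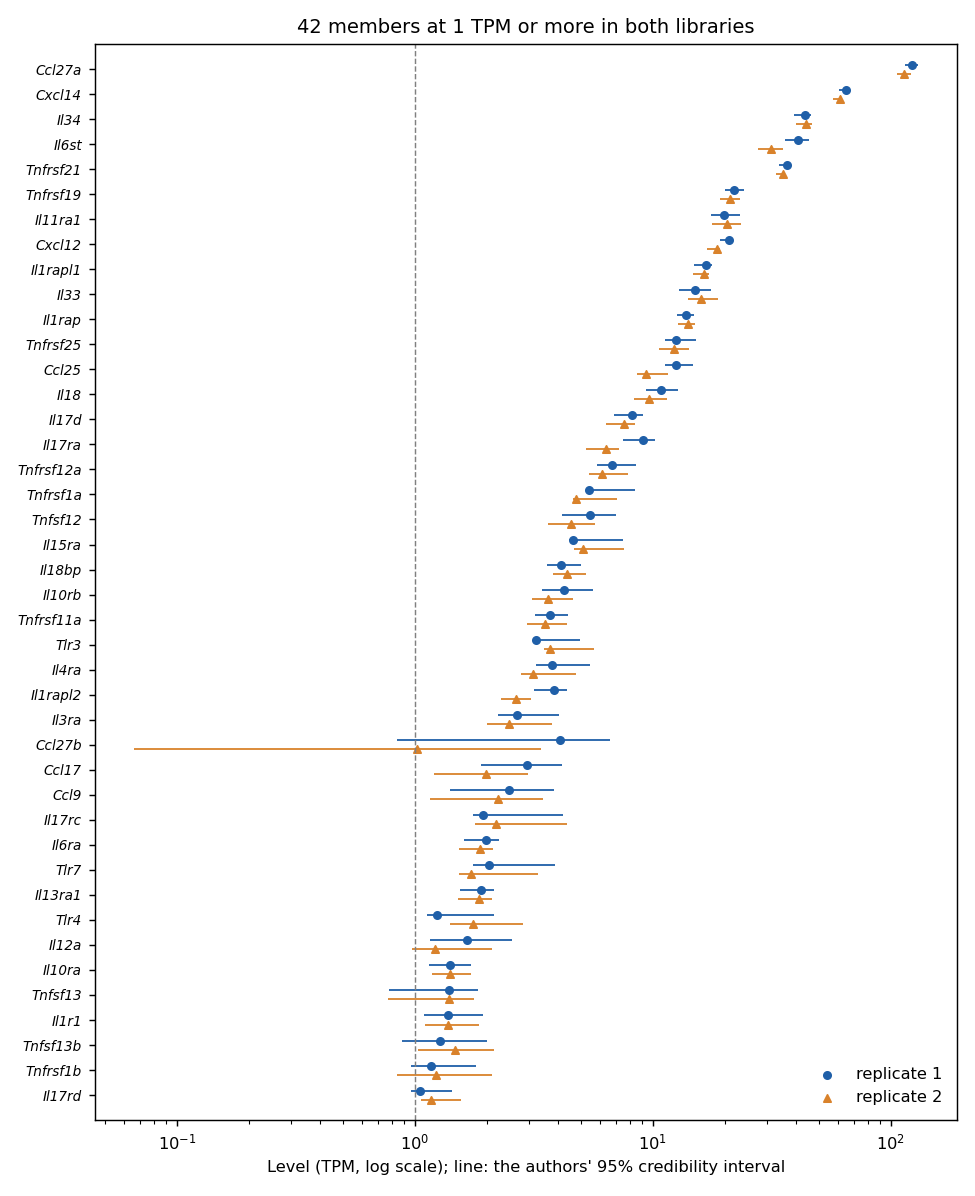
Levels of 42 detected members in each library (circles, replicate 1; triangles, replicate 2) on a log scale in TPM, with lines for the authors' deposited 95% credibility interval and a dashed line at 1 TPM. The interval is widest for Ccl27b, a near-identical copy of Ccl27a.

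Chromosomal neighbours were read together, since many genes of these families lie in clusters. Members within 500 kb of each other formed 11 clusters of at least 3, holding 54 members. Of the clustered members 6 (11.1%) were detected and 39 had 3 counts or fewer, while of the 124 others 37 (29.8%) were detected and 44 had 3 counts or fewer. Of 24 chemokine ligands in clusters 3 were detected, and of 12 outside them 4 were, namely Cxcl14, Cxcl12, Ccl25 and Ccl17.

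Some clusters were nearly empty in the alignment-based counts. The interleukin 1 family cluster with Il1f5, Il1f6, Il1f8, Il1f9, Il1f10 and Il1rn (chr2:24153161-24351494) and the cluster of Il4, Il5 and Il13 (chr11:53602982-53725106) held 0 counts in both libraries. The cluster of Il10, Il19, Il20 and Il24 (chr1:130882074-131024974) held 1 and 0 counts. The monocyte chemokine cluster with Ccl2, Ccl7, Ccl11, Ccl12, Ccl8 and Ccl1 (chr11:82035571-82305690) held 8 and 5 counts.

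Its neighbour on the same chromosome was different in 1 gene. The cluster of Ccl3, Ccl4, Ccl5, Ccl6 and Ccl9 (chr11:83525778-83664683) held 79 and 76 counts, of which Ccl9 took 73 and 65 and Ccl6 took 6 and 11. The neutrophil chemokine cluster of Cxcl1, Cxcl2, Cxcl3, Cxcl5 and Cxcl15 (chr5:90759360-90905938) held 3 and 8 counts, and that of Cxcl9, Cxcl10 and Cxcl11 (chr5:92321347-92365485) held 3 and 1. The read-based tables give more to some of these genes: 26.3 and 29.5 estimated counts to Il1f9, 15.7 and 12.6 to Cxcl5, 11.3 and 6.2 to Cxcl3, 14.7 and 9.48 to Cxcl9, and 10.6 and 8.6 to Cxcl11. The cluster of Il4, Il5 and Il13 had 0 there too. The chromosome 4 cluster with Ccl27a and Il11ra1 (chr4:41699989-42773993) held 2051 and 2001 counts.

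Levels of ligands and receptors were set side by side for 47 known pairs of 33 ligands, a list written after the values were seen. Both genes were detected for 6 pairs. Il34 and Csf1 each pair with Csf1r, the receptor on which microglia depend, which was at 30.57 and 30.90 TPM, and Csf1 was at 6.50 and 5.41 TPM. Cx3cl1, the neuronal fractalkine, was at 288 and 283 TPM, and its microglial receptor Cx3cr1 was at 12.71 and 12.25 TPM. The other 3 pairs were Cxcl12 with the scavenging receptor Ackr3 (3.63 and 4.23 TPM), Il33 with Il1rap, and Tnfsf12 with Tnfrsf12a.

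In 8 pairs the ligand alone was detected. Ccl27a stood beside its receptor gene Ccr10 at 0.09 and 0.06 TPM, and Ccl25 beside Ccr9. Il33 stood beside Il1rl1 at 0.19 and 0.01 TPM, and Il18 beside Il18r1 at 0 and 0 TPM and Il18rap at 0.09 and 0.03 TPM. By reads Il18rap passed the limit on the rescaled level, at 3.05 and 2.49, so that pair depends on the quantification, and Il18r1 had 28.6 and 23.3 estimated counts. Cxcl12 with Cxcr4, Ccl17 with Ccr4 and Tnfsf13b with Tnfrsf13c completed this group. By reads Tnfrsf13c passed too, at 1.23 and 1.26 on the rescaled level. Ccr9 had 44.0 and 39.2 estimated counts by reads, against 10 and 3 by alignments. In protein-coding transcripts alone Tnfsf13b was at 0.26 and 0.27 TPM and Ccl25 at 2.11 and 0.91 TPM. The pairs of both genes therefore also depend on the transcripts counted.

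In 19 pairs the receptor alone was detected, among them Tnf with Tnfrsf1a and Tnfrsf1b, Il6 with Il6ra and Il6st, Il1b with Il1r1 and Il1rap, Il10 with Il10ra and Il10rb, and Il17a with Il17ra and Il17rc. In 14 pairs neither gene was detected. Among the genes of these groups, Il15, Ccl28, Ccl19, Cxcr2, Il12rb1 and Tnfrsf10b passed on the rescaled level by reads alone. Their pairs also depend on the quantification. In protein-coding transcripts alone Il17ra was at 0.99 and 1.08 TPM and Tnfrsf1b at 1.17 and 0.88 TPM. The pairs of Il17a with Il17ra and of Tnf with Tnfrsf1b thus depend on the transcripts counted. A pair at the RNA level says nothing of which cells carry the proteins.

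**Figure D3:**
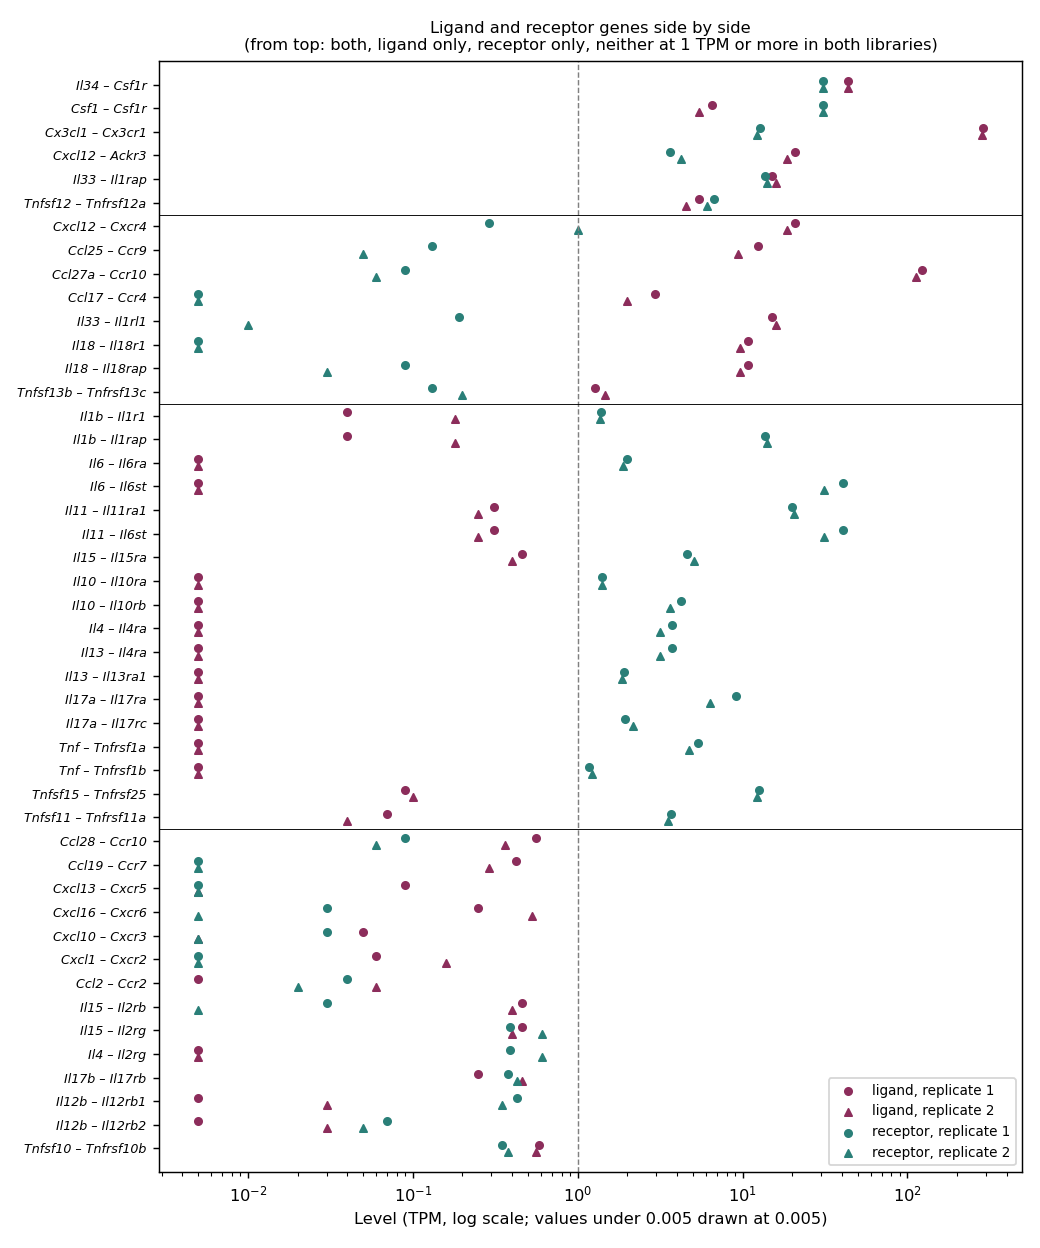
Levels of the ligand (purple) and receptor (green) gene of 46 pairs in both libraries (circles, replicate 1; triangles, replicate 2), on a log scale in TPM, with values under 0.005 drawn at 0.005. From the top, blocks hold the 6 pairs with both genes detected, 8 with the ligand alone, 18 with the receptor alone and 14 with neither.

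The genes that act below these receptors were detected more often than the members, at shares to be read beside the 58.8% of all nuclear protein-coding genes given above. Ranks within these lists are by the mean of the libraries. Of 16 adaptors of interleukin 1 and Toll-like receptors 11 were detected, with a median of 6.72 and 6.45 TPM. The highest were Tollip, an inhibitor of the pathway, at 54.60 and 49.62 TPM, Tab2 at 26.10 and 23.05 TPM, and the kinase Irak1 at 23.61 and 23.17 TPM. Ticam2, a Tlr4 adaptor, was lowest at 0.13 and 0.06 TPM, and Myd88 was at 2.81 and 1.95 TPM.

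Of 13 NF-kB subunits, inhibitors and kinases 12 were detected, with a median of 10.6 and 10.5 TPM. The kinases Ikbkb and Chuk were at 24.53 and 24.20 TPM and at 23.57 and 25.08 TPM, and the inhibitor Nfkbia was at 21.88 and 22.73 TPM. The subunit gene Nfkb2 was lowest by the mean, at 0.99 and 1.23 TPM, next to the inhibitor Nfkbie at 1.26 and 1.02 TPM.

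Of 21 genes of gp130 cytokines and JAK-STAT signalling 16 were detected, with a median of 4.67 and 4.59 TPM. Jak1 was at 57.12 and 51.93 TPM, the ciliary neurotrophic factor receptor chain Cntfr at 55.36 and 51.36 TPM, and the leukaemia inhibitory factor receptor Lifr at 23.07 and 24.00 TPM. The ligand gene Osm was lowest at 0.05 and 0.02 TPM. Lifr and Cntfr, which signal together with gp130, were thus well above Il6ra in both libraries.

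Of 14 TNF receptor adaptors and death domain proteins 10 were detected, with a median of 2.87 and 3.09 TPM. Traf3 was at 18.21 and 21.01 TPM, Birc2 at 14.87 and 13.27 TPM, and Cflar, which blocks caspase 8, at 13.48 and 12.86 TPM. The necroptosis kinase Ripk3 was lowest by the mean, at 0.42 and 0.56 TPM. Of 23 chemokine, growth factor and death receptor genes outside the symbol rule 9 were detected. The 3 highest were Cx3cl1, Ackr1 at 37.88 and 38.59 TPM and Csf1r, and Xcl1, Csf2, Csf3 and Cd40lg had 0 counts in both libraries.

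The 2 libraries were then compared gene by gene, which compares these libraries and no conditions. The ratio of replicate 1 over replicate 2 was taken from rounded expected counts after TMM scaling, with an exact Clopper-Pearson 95% interval that covers counting error only. Of 73 members averaging 10 counts or more, 0 had an interval wholly beyond 2-fold, and among all 18562 such genes 0.307% did. The median log2 ratio of the 73 was 0.02, and over all genes it was 0.0011. Of the 73 members 67 lay within 1.5-fold, and of the 18562 genes 17446 did.

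An interval that left out equality was found for 5 of the 73 members (6.85%), while 15.1% of all genes past the same count limit had one. Such an interval narrows as counts rise, and these shares were not matched for count. They do not show that members were steadier than other genes. The difference was largest in Ccl27b, with 27 and 7 counts and a log2 ratio of 1.90 (0.73 to 3.41), but its split from Ccl27a is itself an estimate. Il4i1 had 44 and 21 counts (1.07, 0.31 to 1.91) and overlaps Nup62, Tbc1d17 and Atf5. Il1rapl2 had 233 and 190 counts (0.31, 0.03 to 0.60), and Ccl25 had 401 and 346 (0.23, 0.02 to 0.45). Il33 had 543 and 622 counts (-0.17, -0.34 to -0.01). The first 4 were higher in replicate 1 and Il33 was lower there. The choroid plexus markers also differed between the libraries, with the sums given above, and their part in these differences was not tested.

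**Figure D4:**
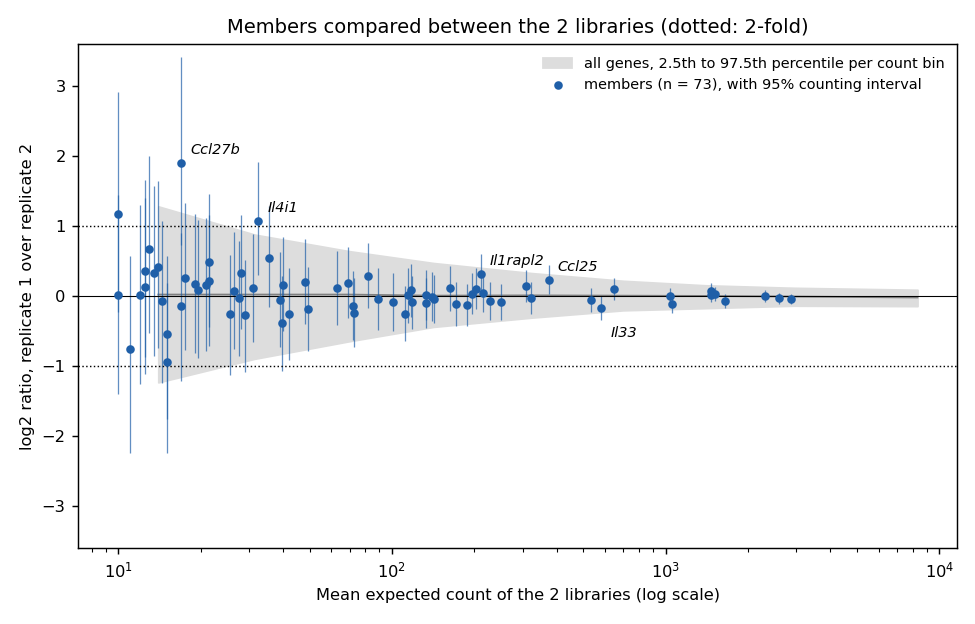
The log2 ratio of replicate 1 over replicate 2 against the mean expected count (log scale) for the 73 members averaging 10 counts or more, with 95% counting intervals; the grey band holds the middle 95% of all genes in bins of count and dotted lines mark 2-fold. The 5 members whose interval leaves out equality are named.

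Part of what was detected was not messenger RNA as annotated. Transcripts typed protein-coding carried a median of 91.4% of the TPM of a detected member, and 88.2% over 12934 detected nuclear protein-coding genes. They carried under 50% for 8 of the 43 members (18.6%), beside 10.8% of those genes. Counting protein-coding transcripts alone, 36 members lay above 1 TPM in both libraries, and Il15ra, at 1.49 and 1 TPM, lay at the limit. This count was added after the values were seen.

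The 8 genes were Ccl25, Il17ra, Tnfsf13b, Il15ra, Il12a, Il4ra, Ccl9 and Il11ra1. For Ccl25 the coding share was 16.9% and 9.69%, and its leading transcripts were the retained-intron forms Ccl25-209 (3.07 and 2.59 TPM) and Ccl25-210 (3.05 and 2.54 TPM). For Il17ra the coding share was 10.9% and 17.0%, where the retained-intron transcript Il17ra-203 was at 4.84 and 4.22 TPM and the coding Il17ra-201 at 0.99 and 1.08 TPM. The level of Il17ra without its processed transcript Il17ra-202 was 5.83 and 5.30 TPM.

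For Tnfsf13b the coding share was 20.3% and 18.4%, for Il15ra 32.3% and 19.8%, for Il4ra 46.7% and 33.4% and for Ccl9 43.8% and 39.3%. For Il12a it was 10.3% and 64.2%, which on 27 and 28 counts leaves the share poorly fixed. Il11ra1 had 50.9% and 46.8%. By the read-based quantification, 7 members had under 50%, and 6 of them were among the 8.

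**Figure D5:**
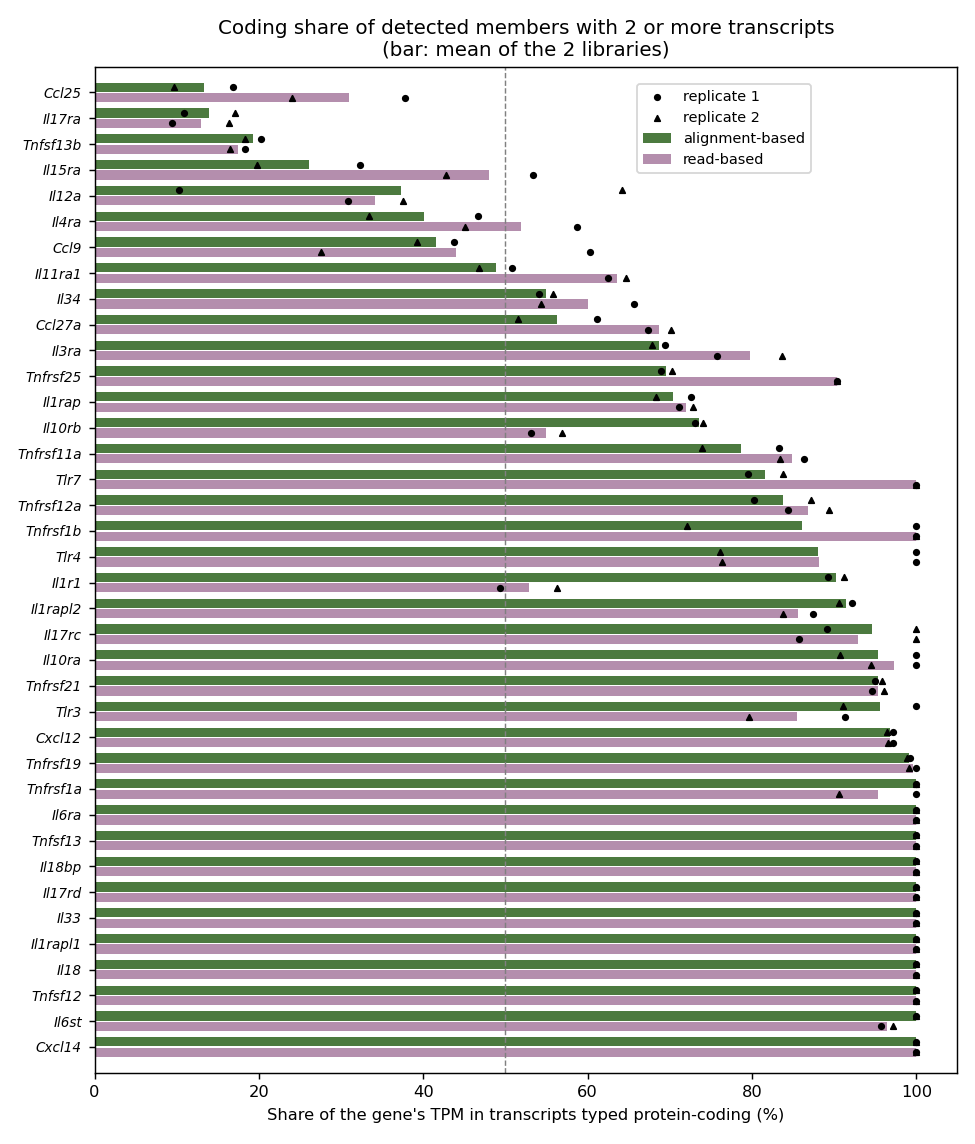
Share of a gene's TPM in transcripts typed protein-coding, in percent, for 38 detected members with 2 or more annotated transcripts; bars are means of both libraries, symbols are the libraries and the dashed line marks 50%. Ccl25, Il17ra and Tnfsf13b are the lowest drawn in the alignment-based tables.

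Isoforms of the highest members could be read where both quantifications gave the same leading transcript by the mean of the libraries, which held for 26 of 39 members with 2 or more transcripts. Cxcl14-201 carried 100% of the gene's TPM in both libraries. Tnfrsf21-201 carried 94.98% and 95.8%. Il34 was split between the coding Il34-201 (22.72 and 22.89 TPM) and the processed transcript Il34-205 (19.70 and 19.17 TPM). Cxcl12 was split between Cxcl12-201 (8.69 and 9.02 TPM) and Cxcl12-202 (8.72 and 7.89 TPM), which overlapped in the alignment-based tables. By reads they did not overlap, at 15.4 and 15.2 TPM for Cxcl12-201 and 13.1 and 11.7 TPM for Cxcl12-202.

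Among receptors and interleukins, Il1rapl1-202 was at 8.79 and 8.51 TPM and the longer Il1rapl1-203 at 6.54 and 6.54 TPM. By reads they were at 10.3 and 9.76 TPM and at 9.18 and 10.02 TPM, so the order turned in replicate 2. Il1rap-202 was at 4.54 and 3.98 TPM, Il1rap-201 at 3.43 and 3.16 TPM, and the nonsense-mediated decay transcript Il1rap-204 at 2.86 and 2.61 TPM. Il33-202 led with 9.67 and 10.30 TPM. Another transcript, Il33-204, 377 bases long, was at 1.01 and 0.33 TPM in the alignment-based tables and 10.21 and 11.03 TPM in the read-based ones, where Il33-202 was at 13.1 and 9.81 TPM, so that Il33-204 led in replicate 2.

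The leading transcript differed between quantifications for the other 13, among them Ccl27a, Il6st, Tnfrsf19, Il11ra1, Tnfrsf25, Ccl25, Tlr3, Il3ra, Il17rc, Tlr7, Tnfsf13 and Il1r1. Ccl27a had 19 annotated transcripts; Ccl27a-206 was at 31.20 and 23.84 TPM by alignments and 0 by reads, where Ccl27a-204 led with 69.0 and 67.7 TPM. For Tnfrsf19 the leaders were Tnfrsf19-202 (11.47 and 12.33 TPM) and, by reads, Tnfrsf19-201 (14.9 and 13.5 TPM). For Tnfrsf25 they were Tnfrsf25-202 (7.5 and 7.17 TPM) and, by reads, Tnfrsf25-201 (9.35 and 8.84 TPM).

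Il11ra1 was led by the retained-intron Il11ra1-206 (7.06 and 7.07 TPM) and, by reads, by the coding Il11ra1-201 (8.78 and 9.33 TPM). Tlr3-205 was at 2.43 and 0.62 TPM, so its share moved between libraries while the gene's counts were 242 and 260. Isoform levels of these 13 genes therefore depend on the method.

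At gene level the quantifications were compared after both were rescaled to the same sum over nuclear protein-coding genes, since these genes held 466945 TPM in replicate 1 and 441203 TPM in replicate 2 as deposited. On this scale 56 members reached 1 in both libraries by alignments, 62 by reads and 52 by both. The same 10 members were highest in both, and 3 of the shared members differed beyond 2-fold, among them Tnfrsf22 (1.84 and 1.43 rescaled TPM by alignments, 3.35 and 4.07 by reads) and Tnfrsf14 (1.99 and 1.22 by alignments, 5.05 and 3.22 by reads).

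Of the 10 members that passed by reads alone, the highest were Tnfrsf10b, the mouse TRAIL receptor, at 4.62 and 4.44 rescaled TPM, Ccl19 at 4.67 and 3.84, Cxcr2 at 2.91 and 2.98, Il18rap at 3.05 and 2.49, Il5ra at 2.02 and 1.67, and Il1f9 at 1.63 and 1.82. In the alignment-based tables Tnfrsf10b was at 0.75 and 0.86, Ccl19 at 0.90 and 0.66, Il18rap at 0.19 and 0.07, and the other 3 at 0. Ccl19 has a near-identical copy, Gm2564, at 6.72 and 6 TPM as deposited. Cxcr2 had 96.7 and 100.03 estimated counts by reads and 0 by alignments. Il15, Il12rb1, Ccl28 and Tnfrsf13c made up the 10, and Tnfrsf8, Tnfsf10, Tlr13 and Il13ra2 passed by alignments alone.

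A count of 0 was therefore method-dependent for a few genes. Of the 45 members at 0 expected counts 36 had 3 estimated counts or fewer by reads, and 4 had 10 or more in both libraries: Cxcr2, Il18r1, Il1f9 and Il5ra. Of the 83 members at 3 expected counts or fewer, 58 had 3 or fewer by reads and 8 had 10 or more in both libraries. Beside the 4 these were Il18rap, with 72.4 and 67.1 estimated counts, Il2ra with 40.1 and 40.3, Ccr2 with 25.6 and 20.2, and Il1rl1 with 16.3 and 13.4. Tnf, Il6, Il10, Il2, Il4, Il17a, Ccl3 and Ccl5 are not among the 8.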

How the data were processed

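Total RNA was measured in 2 libraries of 1 group. Expected counts and TPM per gene and transcript were deposited by the authors in tables derived from alignments, on mm10 with GENCODE M21, per the file headers and the lists of files. The deposited credibility bounds and posterior SD are signal values of the same tables, given by the authors. Estimated counts and TPM per transcript were also deposited in tables derived from the reads, summed per gene here. Which aligner and quantification tools were used, and whether counting used strand, is not given in the sources used here. CAST/EiJ reads were quantified on the C57BL/6J reference, so genes that differ much between the strains may be undercounted. The transcript tables also hold the authors' deposited percent of each gene's expression per transcript; shares here were recomputed from TPM.

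Expected counts were rounded and scaled by edgeR's TMM, version 4.0.16 under R 4.3.3, on the 18562 genes that averaged 10 counts or more. Ratios are replicate 1 over replicate 2 on a log2 scale, with 0.5 added to each count, and carry an exact Clopper-Pearson 95% interval (scipy 1.17.1). A gene was called when the interval lay wholly beyond 2-fold. Intervals and the floor of 3 counts cover counting error only, since PCR copies are not told from molecules here. As the series has 1 group, no groups were tested and no p-value is given. Transfer RNA features and spike-ins stayed out.

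The symbol rule uses no measured value, but it, the lists and the markers were chosen with earlier results of these data known, so no list is independent evidence. The noncoding Il1bos was left out by the rule. In each of 8 classes the detected members are named, except 1 gene that is not reported here and not drawn in the plots of levels, shares and pairs, with the highest members' transcripts, genes whose quantifications differ, a set of well-known inflammatory genes, and the 3 highest and the lowest gene of each pathway list. Copies were called near-identical by blastn 2.17.0 from 98% identity upward, with an alignment of 100 bases or more that spans 80% of the shorter transcript. Clusters, promoters and gene coordinates are from GENCODE M21 and RefSeq GRCm38.p6. Alternatives covered thresholds, scaling (DESeq2 1.42.0, total counts, spike-ins), the read-based tables and leaving out a library.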

Additional observations from a re-analysis of the deposited data

How the results depend on the processing

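The count of 43 detected members was 55 at 0.5 TPM, 29 at 2 TPM, 57 in the read-based tables, 56 after rescaling and 48 with the posterior mean TPM. With protein-coding transcripts alone 36 members lay above 1 TPM and Il15ra lay at the limit, a count added after the data were seen. With more than 3 expected counts in both libraries as the limit the count of detected members was 85. Leaving out a library gave 44 to 46. The count of members called between the libraries, 0 beyond 2-fold, was 1 beyond 1.5-fold and 5 beyond equality, and 0 under DESeq2 size factors, total counts, spike-ins, either count limit and read-based counts. The median log2 ratio, 0.02, was 0.0499 with total counts. The mean of the libraries' median TPM, 0.113, was 0.358 in the read-based tables and 0.247 after rescaling, and ranged from 0.1 to 0.125 over single libraries. The summed TPM, 549, was 887 and 1209 under the same alternatives, and 527 to 571 over single libraries. The share of the 10 highest members, 71.1%, was 66.8% in the read-based tables and 70.6% to 71.6% over single libraries. The leading transcript was the same for 26 members, for 24 among protein-coding transcripts alone, and for 24 to 25 with a library left out. These were not all the same genes. Cxcl12, among the 26, matched in replicate 2 but not in replicate 1, and Ccl27a, not among them, matched in replicate 1. Rescaled levels of 32 of the 43 members moved beyond 1 SD of the rescaled levels in the read-based tables. In all, 16 rescaled levels moved upward and 27 downward, 3 of them beyond 1.5-fold. The cause of these shifts was not tested. Ratios between the libraries cannot be recomputed with a library left out. No paired analysis was possible because the series holds a single group. Depth limits members with 3 counts or fewer to a floor, whose median over members at 0 was 0.125 and 0.117 TPM.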
